A study of Mus musculus with 6 samples.

Results

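The genes described here are 7 members of the angiotensin and prostacyclin pathways, Agt, Ace, Agtr1a, Ptgs1, Ptgs2, Ptgis and Ptgir, followed through genome-wide DNA methylation in lung endothelial cells of the mouse. They were taken by name, and every 1-kb window that overlaps the RefSeq span of a member or the 20 kb on either side of it was kept. That gave 413 of the 1683697 windows with a value in all 6 samples, around 7 of the 47042 autosomal genes of the RefSeq table. Whole-genome bisulfite sequencing was done on endothelial cells sorted by flow cytometry from lungs of wild-type mice of different ages, with no treatment named. The samples are 3 titled mAdu and 3 titled aged. Of the ages in the series' design, 8 months was read as the age of mAdu and 18 months as that of the aged samples, although no label links an age to a title. Whether the 3 samples per group are different animals is not stated. Each p-value therefore reflects only how much these samples vary, which could be technical variation. The comparison the design sets up is between these ages. The deposited value of a window is its mean methylation, from 0% (no copy methylated) to 100%, and the depth behind each value is unknown. In sorted bulk cells, a change in the share of a cell type and a change within cells cannot be told apart.

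In the renin-angiotensin system, angiotensinogen (Agt) is cut by renin to angiotensin I, angiotensin-converting enzyme (Ace) turns that into angiotensin II, and the type 1 receptor (Agtr1a) passes the signal on to constrict vessels. The endothelium of lung capillaries is the classical site of Ace. In the prostanoid pathway, cyclooxygenases (Ptgs1, constitutive, and Ptgs2, inducible) make prostaglandin H2 from arachidonic acid, prostacyclin synthase (Ptgis) turns it into prostacyclin, and the receptor Ptgir on smooth muscle and platelets relaxes vessels and restrains clotting. Methylation of CG dinucleotides is usually low where CG-rich promoters are found and high across gene bodies and the space between genes.

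The RefSeq start sequences at hand covered 5 of the 7 members, Ace with 2 starts. They held none for Agtr1a and Ptgis, whose starts are therefore not given here. The 250 bases before each of the 6 starts are shown, credited to RefSeq on build GRCm38.p6 (mm10), because the methylation of the start follows in the next paragraph and its CG content differs between members. They run 5′ to 3′ on the gene's strand, and capitals mark CG dinucleotides, the sites that can be methylated.
Agt, minus strand, chr8:124569707-124569956: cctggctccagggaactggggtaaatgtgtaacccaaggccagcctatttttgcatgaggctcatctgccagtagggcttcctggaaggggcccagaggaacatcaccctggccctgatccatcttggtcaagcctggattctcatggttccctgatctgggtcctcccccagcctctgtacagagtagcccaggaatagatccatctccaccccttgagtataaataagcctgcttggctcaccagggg
Ace, plus strand, chr11:105967698-105967947: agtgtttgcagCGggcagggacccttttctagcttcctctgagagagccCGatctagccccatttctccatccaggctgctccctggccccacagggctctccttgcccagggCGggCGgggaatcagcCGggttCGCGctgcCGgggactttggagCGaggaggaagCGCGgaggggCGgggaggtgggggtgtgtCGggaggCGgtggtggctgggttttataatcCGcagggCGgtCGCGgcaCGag
Ace, start inside the gene, plus strand, chr11:105974939-105975188: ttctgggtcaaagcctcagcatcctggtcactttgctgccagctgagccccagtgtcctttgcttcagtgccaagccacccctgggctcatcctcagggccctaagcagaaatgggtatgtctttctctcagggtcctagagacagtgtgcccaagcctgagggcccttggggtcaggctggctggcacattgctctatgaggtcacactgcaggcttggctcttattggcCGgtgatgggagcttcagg
Ptgs1, plus strand, chr2:36230176-36230425: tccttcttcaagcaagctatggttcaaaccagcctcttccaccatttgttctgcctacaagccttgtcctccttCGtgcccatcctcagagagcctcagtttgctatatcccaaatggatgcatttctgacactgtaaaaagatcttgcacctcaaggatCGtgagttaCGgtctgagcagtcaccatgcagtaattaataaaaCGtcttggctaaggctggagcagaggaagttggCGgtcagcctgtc
Ptgs2, plus strand, chr1:150099781-150100030: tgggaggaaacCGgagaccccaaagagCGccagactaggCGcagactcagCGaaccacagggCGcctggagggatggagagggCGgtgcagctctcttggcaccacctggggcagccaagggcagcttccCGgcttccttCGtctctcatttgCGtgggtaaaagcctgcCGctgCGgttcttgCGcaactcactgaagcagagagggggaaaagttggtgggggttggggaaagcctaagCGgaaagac
Ptgir, plus strand, chr7:16906240-16906489: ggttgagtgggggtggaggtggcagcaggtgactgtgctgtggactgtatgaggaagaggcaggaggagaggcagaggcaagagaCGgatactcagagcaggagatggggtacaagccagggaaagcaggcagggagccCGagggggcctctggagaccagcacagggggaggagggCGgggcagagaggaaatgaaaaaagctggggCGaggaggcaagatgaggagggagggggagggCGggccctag

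The members' starts ranged from almost bare to densely methylated. The starts of Ptgs1, Ace and Ptgs2 had mean levels of 3.74%, 8.14% and 12.4% over the 6 samples, while the start inside Ace had 63.2%, Agt 72.2% and Ptgir 73.9%. The level of a start is the mean of the 1-kb windows that overlap the 250 bases before it to 50 bases after it. Of the neighbours in this order 4 of 5 pairs differed in the same direction in 6 of 6 samples, by 4.41 (Ptgs1 to Ace), 4.22, 50.8 and 9.05 points. Each gave the smallest p that an exact two-sided sign-flip test within 6 samples allows (adjusted p = 0.0391 over the 5 pairs). Agt and Ptgir differed by 1.66 points on average, with Ptgir above Agt in 3 of 6 samples (exact p = 0.562). This test of the starts was added after their values were seen.

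The 250 bases before the start held 19 CG in Ace and 13 in Ptgs2, more than 79.8% and 67.9% of 31396 RefSeq promoters, whose median is 6. Ptgs1 and Ptgir held 5 each, the start inside Ace held 1 and Agt held 0. Across all RefSeq starts the median methylation was 72% with 0 to 2 CG, 66.5% with 3 to 5, 26% with 6 to 10, 4.85% with 11 to 15 and 1.72% with 16 to 56. Ptgs1 and Ptgir have the same CG count and stood at 3.74% and 73.9%. For starts with 3 to 5 CG the quartiles were 41.1% and 79.4%, so Ptgir lay between them and Ptgs1 far below the lower one. Ace, at 8.14%, lay above the upper quartile of 5.21% of the most CG-rich class, though still low. Of 4 letter strings searched on both strands, GGGCGG occurred 4 times before the Ace start, 2 times before Ptgir and 1 time before Ptgs2, and is found in 33% of all promoters of this length. TATAAA was found before Ace and Agt (12.4% of promoters), GGAAGT before Ptgs1 (19.8%) and TGACGT before none of them (6.52%). GGGCGG and TGACGT each contain a CG that is also counted above.

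**Figure D1:**
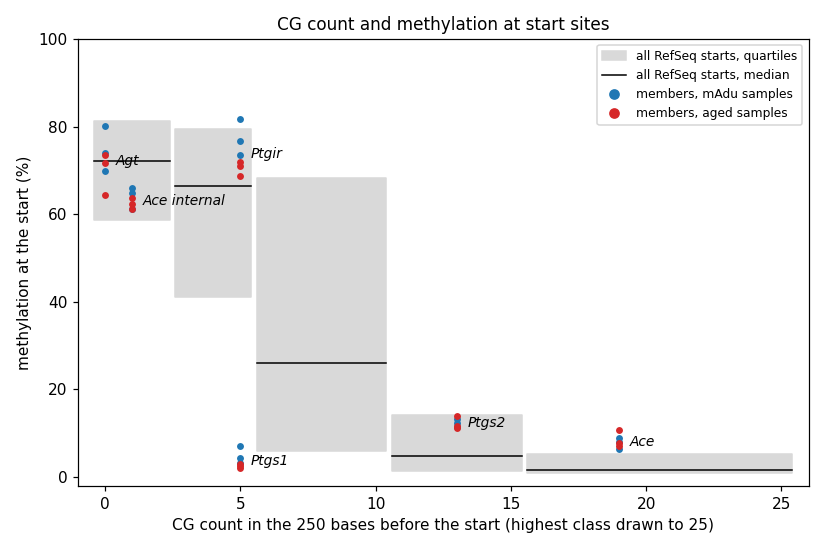
Methylation of the start (y axis, percent) against the CG count in the 250 bases before it (x axis) for the 6 RefSeq starts of members, with 1 point per sample and, in grey with a black line, the quartiles and median of all RefSeq starts by CG class. Ptgs1 and Ptgir share a CG count of 5 and lie at opposite ends of the scale, in all 6 samples.

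Angiotensinogen (Agt, chr8:124556587-124569706) is a liver-made precursor, and its locus had no window under 20% among 53. Its lowest window, chr8:124573001-124574000, in the flank beyond the start, measured 40.6%, 40.8% and 40.4% in mAdu samples 1 to 3 and 42.6%, 40.9% and 46.3% in aged samples 1 to 3. The start window had 73.9%, 69.8% and 80.1% in mAdu and 71.8%, 64.5% and 73.4% in aged samples. Those groups overlap, with mAdu 3 highest and aged 2 lowest. The body, counted from 500 bp inside each edge of the gene, had 67.6%, 68.2% and 67.8% in mAdu and 65.6%, 66.8% and 69.7% in aged samples. Its mean of 67.6% stood at percentile 28.4 among 28922 gene bodies. The flank on the lower-coordinate side reaches to 20 kb and lies mostly inside the gene Cog2 (chr8:124520767-124552008). This flank was at 87.4%, percentile 97.8 of all flanks and the highest of the members' 14 flanks. It varied by only 0.808 points over the 6 samples.

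Angiotensin-converting enzyme (Ace, chr11:105967948-105989964) had the most windows under 20% of the 7 loci, 9 of 62. A run of 3 windows from chr11:105967001 to 105970000, across the start, averaged 3.4%, and a run of 2 from chr11:105989001 to 105991000, across the far edge, averaged 5.72%. The lowest window, chr11:105968001-105969000, just inside the gene, had 0.622%, 1.19% and 0.592% in mAdu and 0.344%, 1.06% and 0.341% in aged samples. A further window under 20% lay inside the gene, at chr11:105987001-105988000 (8.48%), and another 8.45 kb before the start, at chr11:105959001-105960000 (8.11%). The body had 51.3%, 50.9% and 48.7% in mAdu and 49.4%, 49.6% and 49.8% in aged samples, with mAdu 3 lowest and the groups overlapping. At 49.9% its mean was at percentile 6.61 of all bodies. The noncoding gene Gm11651 (chr11:105965607-105985694) overlaps most of Ace, so values there belong to both.

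The angiotensin II receptor (Agtr1a, chr13:30336356-30382867) had a sharp dip of 1 window at its lower-coordinate edge and was methylated elsewhere. That window, chr13:30336001-30337000, measured 4.03%, 4.03% and 4.62% in mAdu and 4.94%, 5.69% and 2.99% in aged samples. The body had 68.7%, 67.6% and 70.8% in mAdu and 71.5%, 64.4% and 69.6% in aged samples. These values are widely spread, and 6 of the 43 body windows, within chr13:30371001-30377000, came within 0.01 points of 0% or of 100% in some sample. Without those 6 windows the body had 71.4%, 71.6% and 71.7% in mAdu and 70.9%, 70.6% and 72.3% in aged samples, a much narrower spread. Windows with such extreme values were 13 of 413 at these loci, 10 around Agtr1a and 3 around Agt, and 28920 (1.72%) of all windows.

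Cyclooxygenase 1 (Ptgs1, chr2:36216742-36258593) had a dip of 1 window at its RefSeq start, which lies 13.7 kb inside the gene span. The start window, chr2:36230001-36231000, had 4.31%, 7.17% and 3.28% in mAdu and 2.49%, 2.19% and 2.97% in aged samples. All 3 aged samples were below all 3 mAdu samples, and mAdu 2 was highest. The lower-coordinate end of the span, from 1000 bp outside to 500 bp inside the edge, was methylated at 72.7% on average. The body had 75%, 75.4% and 73.9% in mAdu and 73%, 72.7% and 73.5% in aged samples, and here too the groups did not overlap. The window before the start was at 81.3%, and the 6 windows after it were at 26%, 80.7%, 58.7%, 31.9%, 51.5% and 27.9%. The sharp edge thus lay on the side before the start, and most windows after it were of intermediate level.

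Cyclooxygenase 2 (Ptgs2, chr1:150100031-150108234) had a dip of 2 windows, chr1:150099001-150101000, where the noncoding gene Ptgs2os also begins. This start had 11.6%, 13.2% and 12.3% in mAdu and 11.8%, 14% and 11.3% in aged samples, and the groups overlapped throughout. The far end was at 88.7%, percentile 91.5 of all gene ends. Across the body the values were 67.6%, 67.2% and 66.7% in mAdu and 68.8%, 66.3% and 66.6% in aged samples, all within 2.41 points of each other. The aged and mAdu means differed by 0.0114 points at the start and by 0.0746 points in the body.

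Prostacyclin synthase (Ptgis, chr2:167203194-167252150) had no bare end. Its lower-coordinate end measured 84.2%, 87.6% and 85.5% in mAdu and 84.1%, 83.3% and 82.3% in aged samples, without overlap, although mAdu 1 and aged 1 were nearly the same. The higher-coordinate end had 57%, 58.7% and 52.7% in mAdu and 53.3%, 55.6% and 60.4% in aged samples, with the groups interleaved. Inside the gene, 3 separate windows lay under 20%, at chr2:167209001-167210000 (9.23%), chr2:167232001-167233000 (19.9%) and chr2:167240001-167241000 (16%). A further one lay 9.35 kb beyond the higher-coordinate edge, at chr2:167261001-167262000 (15.4%). None of those 4 holds an edge of a RefSeq gene. The body had 74.2%, 74.9% and 74.9% in mAdu and 73.2%, 73.8% and 74.3% in aged samples, an overlap by aged 3 and mAdu 1 alone.

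The prostacyclin receptor (Ptgir, chr7:16906490-16910905) is the shortest member and had no window under 20% in the gene. Its start window, chr7:16906001-16907000, had 81.8%, 76.7% and 73.5% in mAdu and 68.7%, 70.9% and 71.8% in aged samples. The groups did not overlap, and the mAdu samples were spread over more points than the gap between the groups. The lowest window inside the gene, chr7:16908001-16909000, was at 31.4%. The body had 63.7%, 62.8% and 61.6% in mAdu and 61.2%, 59.6% and 59.9% in aged samples, again with no overlap. At 61.5% its mean was at percentile 15.7 of all bodies, and the flank on the lower-coordinate side, at 54.6%, was at percentile 4.99 of all flanks. That flank holds the whole of the gene Gng8 and an edge of Dact3, and its windows under 20% lie at Gng8.

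**Figure D2:**
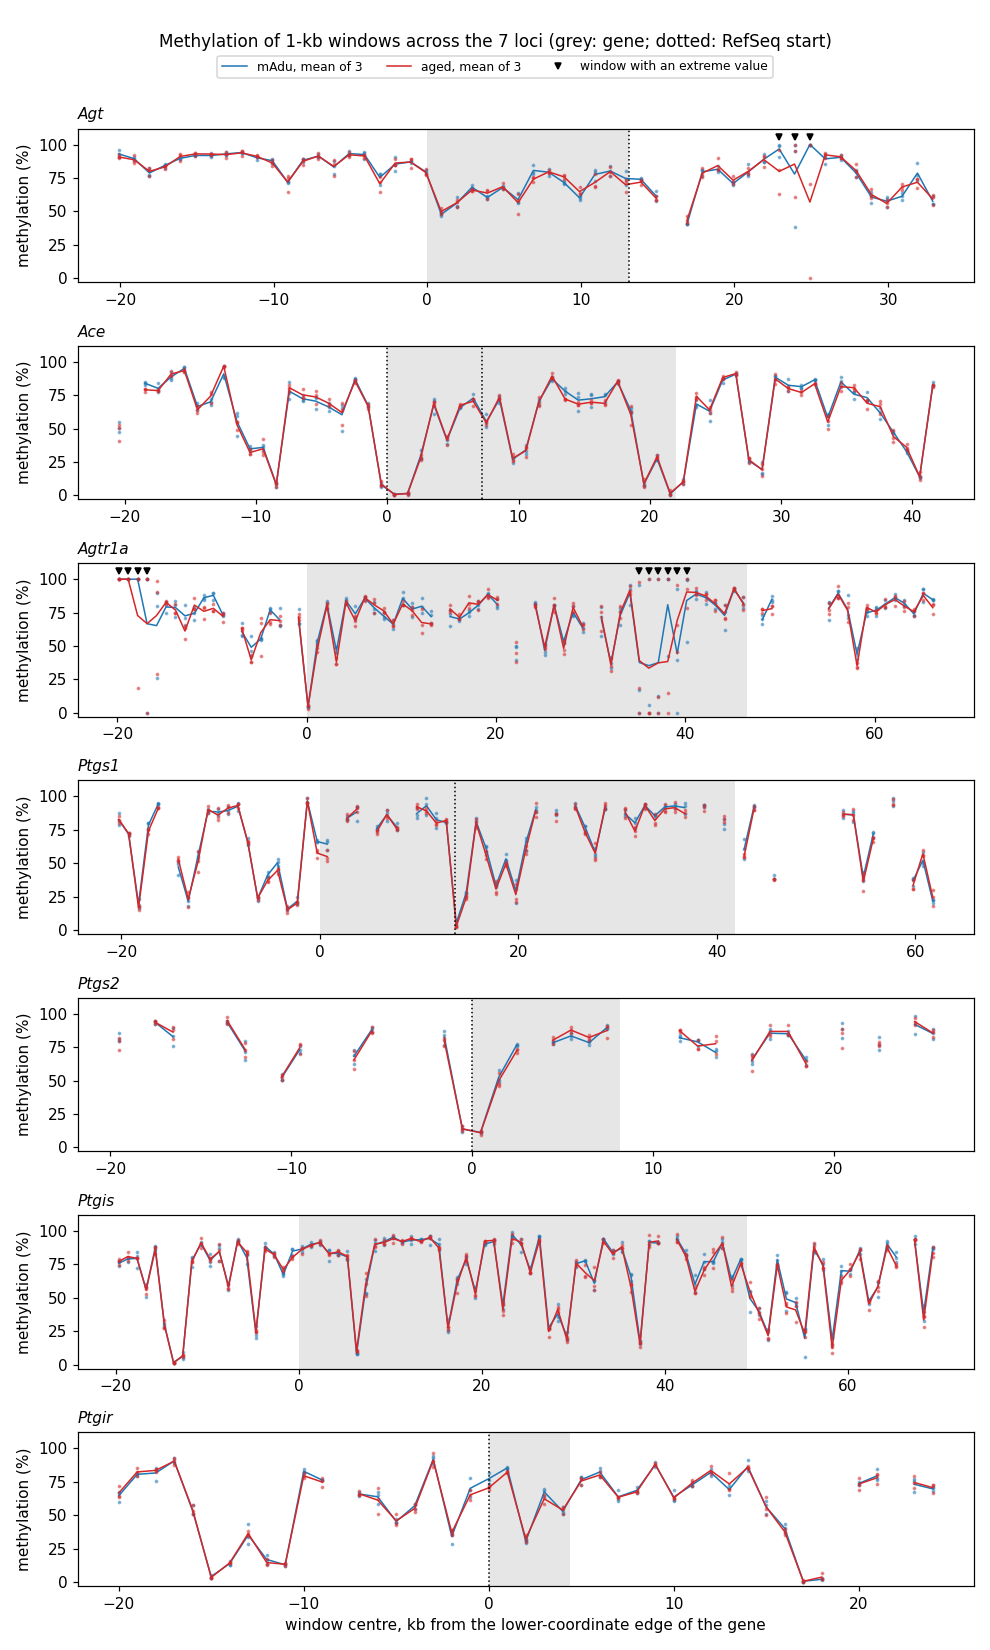
Methylation (y axis, percent) of each 1-kb window along the 7 loci (x axis, kb from the lower-coordinate edge of the gene, grey band), with points for samples, lines for group means and dotted lines for RefSeq starts; lines are broken where windows are missing. Triangles mark the 13 windows with an extreme value, and the dips at the edges of Ace, Agtr1a and Ptgs2 and inside Ptgs1 appear in both groups.

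In order of mean body level the members ran Ace (49.9%), Ptgir (61.5%), Ptgs2 (67.2%), Agt (67.6%), Agtr1a (68.8%), Ptgs1 (73.9%) and Ptgis (74.2%). Between neighbours, Ptgir exceeded Ace by 11.5 points, Ptgs2 exceeded Ptgir by 5.75 points and Ptgs1 exceeded Agtr1a by 5.17 points, each in 6 of 6 samples. In the exact two-sided sign-flip test each of these gave the smallest possible p and an adjusted p of 0.0625 over the 6 pairs, so 0 of 6 pairs passed the threshold of 0.05. Whether pairs at that smallest p pass depends on how many of the 6 reach it, not on the size of a difference. Ptgs2 and Agt, Agt and Agtr1a, and Ptgs1 and Ptgis differed by 0.409, 1.13 and 0.31 points, less than the SD of those differences over samples (2.05, 2.96 and 0.8). Without the windows with extreme values, Agtr1a exceeded Agt by 3.81 points in 6 of 6 samples and 4 of 6 pairs passed (exact test, adjusted p = 0.0469).

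By likeness of level over the 6 samples and 5 regions of a gene (both ends, body and both flanks), the nearest of 25155 autosomal genes to Ptgs2 were Rbm4b and Ralgds, with root mean square differences of 1.95 and 2.4 points. The nearest to Ace were the noncoding Gm15998 (3.69 points) and Slc39a7 (4.46). For Agt they were C77080 (3.03) and Slit1 (3.19), for Agtr1a Nsun5 (3.89) and Gpr83 (3.94), for Ptgs1 Cyth4 (4.08) and Adgrg7 (4.23), for Ptgis Gzmm (3.25) and Gm51857 (3.4), and for Ptgir Gm31522 (3.62) and Ano1 (3.7).

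Windows under 20% formed short runs, some across gene edges and some away from any. Of the 413 windows, 27 (6.54%) were under 20% on average over samples, against 2.9% of all windows, 223 were between 20% and 80%, and 163 (39.5%) were above 80%, against 44%. The 27 windows formed 19 runs, of which 9 held an edge of a RefSeq gene and 10 did not. The Ace locus held 9 of the low windows, Ptgis and Ptgir 6 each, Ptgs1 3, Ptgs2 2, Agtr1a 1 and Agt 0.

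Between the ages, no start, end, body or flank of the 7 genes passed the test, and where the groups were apart the aged samples were the lower ones. Regions were compared with limma, a linear model fitted over every feature of the same class in the genome, on the percent scale, with Benjamini-Hochberg adjustment at 0.05. Differences are aged minus mAdu in percentage points. The largest contrasts without overlap were at Ptgir and Ptgs1. Over all features, 9.91% to 10.4% of a class had no overlap.

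At the starts, 0 of 6 passed, against 0.0103% of 29229 starts. The Ptgir start had a mean of 77.3% ± 4.21 (SD, n = 3) in mAdu and 70.5% ± 1.59 (SD, n = 3) in aged samples, a difference of -6.85 ± 2.53 (SE), with a limma adjusted p of 0.939 (unadjusted 0.0301). The Ptgs1 start had 4.92% ± 2.01 and 2.55% ± 0.394 (SD, n = 3 each), a difference of -2.37 ± 0.967 (SE), with a limma adjusted p of 0.939 (unadjusted 0.0437). Without mAdu 2, its highest sample, the difference was -1.25. These 2 of 6 were the starts with no overlap, against 10.4% of all starts (4.98% with the aged group lower), and with limma's unadjusted p under 0.05, against 4.68% (2.4% lower). The Agt start differed by -4.71 points with overlapping groups, and those of Ace, the start inside Ace and Ptgs2 by 0.788, -1.61 and 0.0114 points. The aged mean was lower at 4 of 6 starts, against 49% of all starts. The median difference over the 6 was -1.99 points, against 0.0261 over all starts.

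Among the 7 bodies, 0 passed, against 0.00346% of 28922. The Ptgs1 body differed by -1.72 ± 0.558 (SE; 95% interval -3.09 to -0.355), with a limma adjusted p of 0.935. The Ptgir body differed by -2.47 ± 0.798 (SE; 95% interval -4.42 to -0.513), also with a limma adjusted p of 0.935. These were the 2 bodies with no overlap, against 10.1% of all bodies (5.55% with the aged group lower). They were also the 2 with limma's unadjusted p under 0.05 (0.0216 and 0.0214), against 5.08% (2.84% lower), a count that ranged from 0 to 2 as each sample was left out. The other 5 differed by -0.935 (Ptgis), -0.693 (Ace), -0.523 (Agtr1a), -0.493 (Agt) and 0.0746 (Ptgs2). In all, 6 of 7 bodies had a lower aged mean, against 52.6% of all bodies, and the median difference was -0.693 against -0.0494.

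Of the 14 ends, 0 passed, against 0.0147% of 88374. The lower-coordinate end of Ptgs1 had 73.6%, 76.3% and 77.3% in mAdu and 71%, 68.3% and 69.6% in aged samples, all aged below all mAdu samples. It differed by -6.08 ± 1.7 (SE), with a limma adjusted p of 0.975 (unadjusted 0.00994). This end is not at the RefSeq start, which lies 13.7 kb away. The lower-coordinate end of Ptgir, which holds its start, had 75.4%, 70% and 75.8% in mAdu and 68.6%, 66.3% and 68.6% in aged samples, with mAdu 2 closest to the aged ones. It differed by -5.87 ± 2.07 (SE), with a limma adjusted p of 0.975 (unadjusted 0.0267), and by -3.04 with the end widened to 2000 bp outside and 1000 bp inside the edge. With the end of Ptgis described above (-2.56 ± 1.35, SE), 3 of 14 ends had no overlap, against 10.1% of all ends (5.28% with the aged group lower). Of the 14, 2 had limma's unadjusted p under 0.05, against 4.95% (2.66% lower). The Ptgis difference was -1.63 without mAdu 2 and -0.556 with the widened end. The aged mean was lower at 8 of 14, against 50.5%.

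Of the 14 flanks, 0 passed, against 0.00365% of 82130. The higher-coordinate flank of Ptgis had 61.7%, 60.7% and 60.7% in mAdu and 58.1%, 59.4% and 58.1% in aged samples, all aged below all mAdu samples. It differed by -2.46 ± 0.63 (SE), with a limma adjusted p of 0.977 (unadjusted 0.00797), and by -1.19 with the flank taken to 50000 bp. The higher-coordinate flank of Ptgs1 had 62%, 62.5% and 62% in mAdu and 61.9%, 60.4% and 60.9% in aged samples, a difference of -1.09 ± 0.598 (SE), and of -0.611 with the flank taken to 50000 bp. The groups were apart there only by the narrow gap between mAdu 3 and aged 1. So 2 of 14 flanks had no overlap, against 9.91% of all flanks (5.6% with the aged group lower), and 1 had limma's unadjusted p under 0.05, against 4.58% (2.63% lower). The aged mean was lower at 10 of 14, against 53.3%. The higher-coordinate flank of Agt is among the 10, at -2.2 points, and turned to 0.658 without its 3 windows with extreme values. The flank on the lower-coordinate side of Agtr1a differed by -2.99 points with an interval from -14.6 to 8.58, and by -1.89 without its 4 windows with extreme values.

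**Figure D3:**
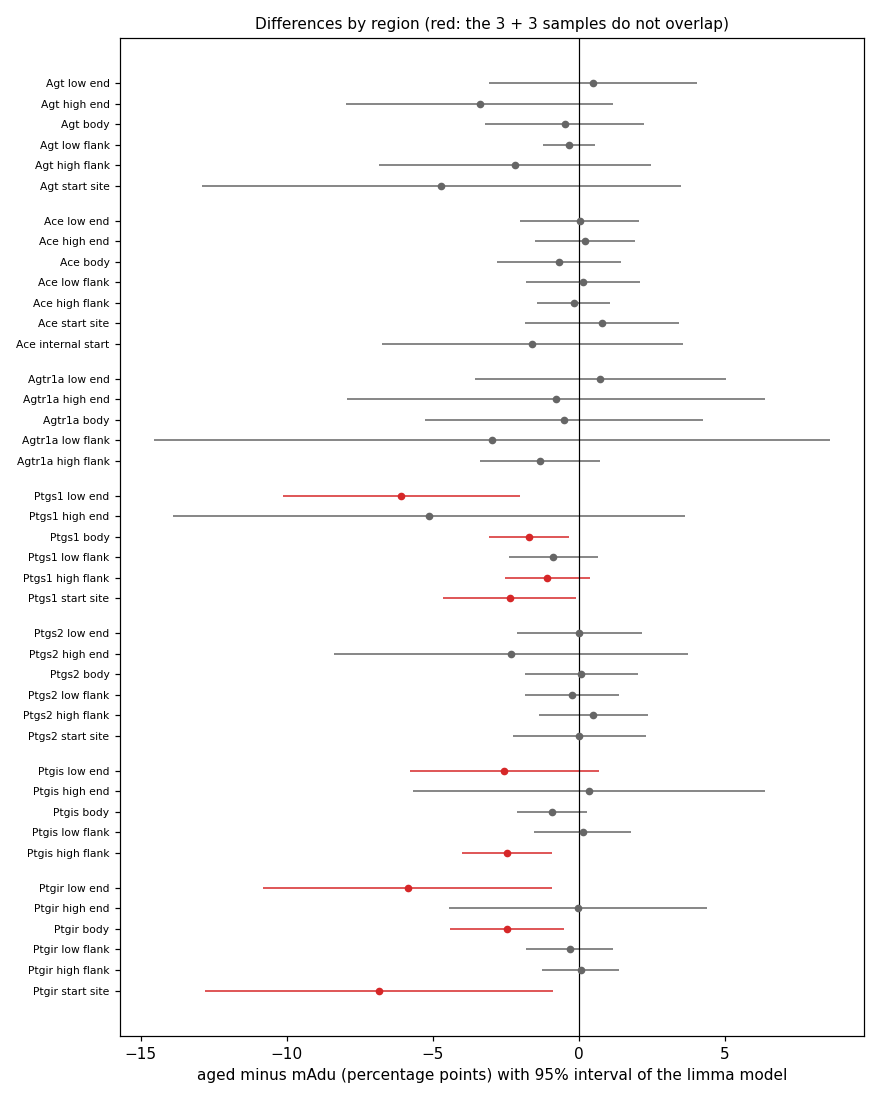
Difference of aged minus mAdu means (x axis, percentage points) with its 95% interval from limma for the 41 regions of the 7 genes (y axis), in red where the 3 samples of one group all lie beyond the 3 of the other. All 9 red regions are below 0 and belong to Ptgs1, Ptgis and Ptgir. Over all features, 9.91% to 10.4% of a class had no overlap, and 4.98% to 5.6% had none with the aged group lower. The 9 are not separate results, as the Ptgir start window also counts in its end and body, and the Ptgs1 start window in its body. The window chr2:36217001-36218000 counts in both the lower-coordinate end and the body of Ptgs1. The 95% interval of 26 of 41 regions stays within 5 points of 0.

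Averaged over members within each sample, bodies were at 66.6% ± 0.261 in mAdu and 65.7% ± 0.811 in aged samples (SD, n = 3 each). The 14 ends averaged 58.2% ± 0.98 and 56.5% ± 0.243, the 6 starts 40.2% ± 0.823 and 37.7% ± 0.561, and the 14 flanks 69% ± 0.472 and 68.2% ± 0.587. The means of bodies, ends and starts did not overlap between the groups and those of flanks did. Exact permutation tests gave p = 0.1 each for bodies, ends and starts (adjusted p = 0.133) and p = 0.2 for flanks (adjusted p = 0.2). With 3 samples per group, 0.1 is the smallest p this test can give, so it cannot decide whether the ages differ. The start of Ptgir is counted in its end too, and windows are shared between ends, bodies and starts, so these means are not independent of each other.

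**Figure D4:**
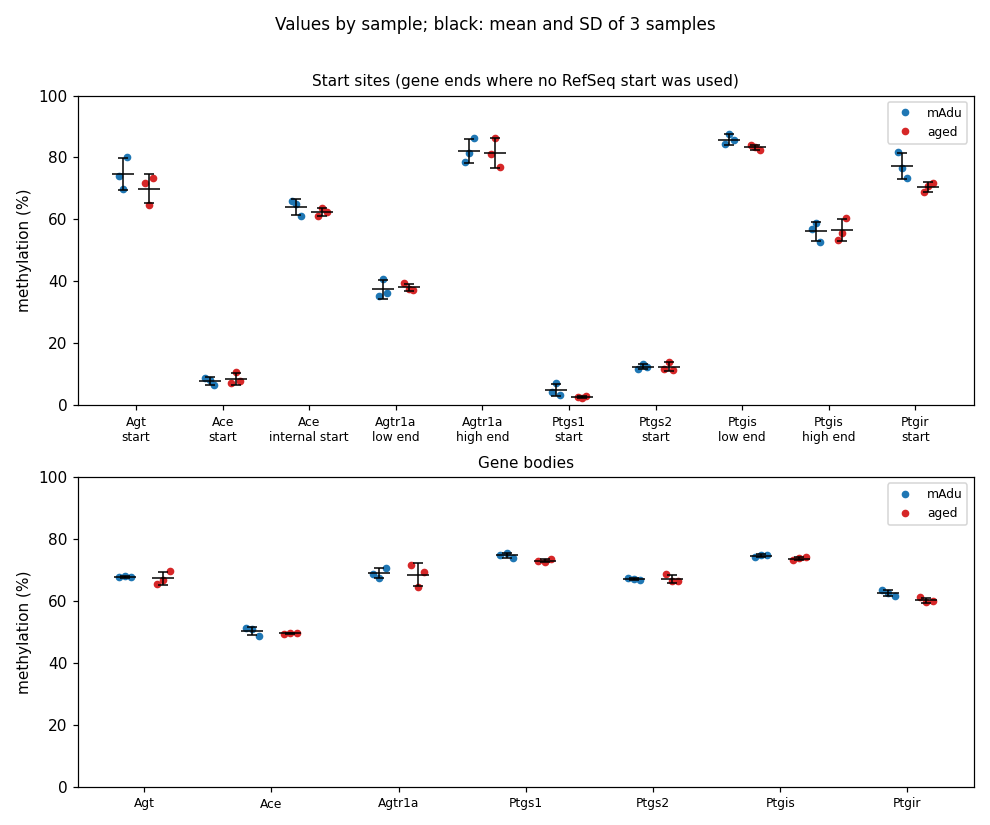
Methylation (y axis, percent) of each sample at the starts or, for Agtr1a and Ptgis, at both gene ends (upper panel) and in the bodies (lower panel), with black bars for the mean and SD of 3 samples. The bodies of Ptgs1 and Ptgir, the starts of Ptgs1 and Ptgir and the lower-coordinate end of Ptgis have all aged points below all mAdu points. Over all features, 10.1% of bodies, 10.1% of ends and 10.4% of starts had no overlap in either direction.

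Window by window, 0 of 413 passed limma's adjusted threshold, where the smallest adjusted p was 0.978, against 0.0211% of all windows. At limma's unadjusted p under 0.05 there were 22 windows (5.33%), against 4.67%, with 19 lower in aged samples (4.6%, against 2.51%) and 3 higher (0.726%, against 2.15%). No overlap was seen in 57 windows (13.8%), against 10% of all windows, with 39 lower (9.44%, against 5.28%) and 18 higher (4.36%, against 4.76%). A lower aged mean was seen in 56.4% of the 413 windows, against 51.1%, with a median difference of -0.366 points against -0.0769. Adjacent windows need not be independent, so these shares describe the loci and carry no test.

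The 22 windows were spread over 6 loci. Agtr1a had 9, of which 7 were lower in aged samples, and the one with the smallest p among all 413 lies 9.86 kb before its lower-coordinate edge, at chr13:30326001-30327000. It had 89.6%, 89.5% and 84.6% in mAdu and 76.3%, 76.4% and 81.7% in aged samples, a difference of -9.75 ± 2.48 (SE; limma unadjusted p = 0.00571, adjusted p = 0.978). The groups did not overlap, and the neighbouring window at chr13:30325001-30326000 also had all aged samples lower, by -10.2 points. Ptgis had 6, all lower in aged samples, 3 in the gene and 3 in the higher-coordinate flank. Among them was the low window at chr2:167261001-167262000, with 15.1%, 20.4% and 20.1% in mAdu and 13.5%, 14.5% and 9.04% in aged samples (-6.22 ± 2.06, SE). The aged samples were lower there in all 3 cases, and mAdu 1 stood nearest to them.

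Ptgs1 had 3 such windows, and the edge window chr2:36216001-36217000 had 65.6%, 67.4% and 65.8% in mAdu and 60.2%, 58.3% and 54.1% in aged samples (-8.72 ± 2.93, SE). The next window into the gene, chr2:36217001-36218000, differed by -9.33 points with mAdu 1 and aged 3 overlapping. Ace had 2, with the smaller p at chr11:105949001-105950000 in the flank (-4.88 ± 1.87, SE), and Agt had 1, at chr8:124563001-124564000 in the gene (-6.54 ± 2.74, SE). Ptgs2 had 1 and it was higher in aged samples: chr1:150111001-150112000, beyond the gene, had 83.8%, 79.8% and 82.7% in mAdu and 88.1%, 86.2% and 87.7% in aged samples (5.26 ± 1.85, SE). All 3 aged samples were above all mAdu samples in that window. Ptgir had 0, its start window being the closest, with a limma unadjusted p of 0.0524 in the fit over windows.

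**Figure D5:**
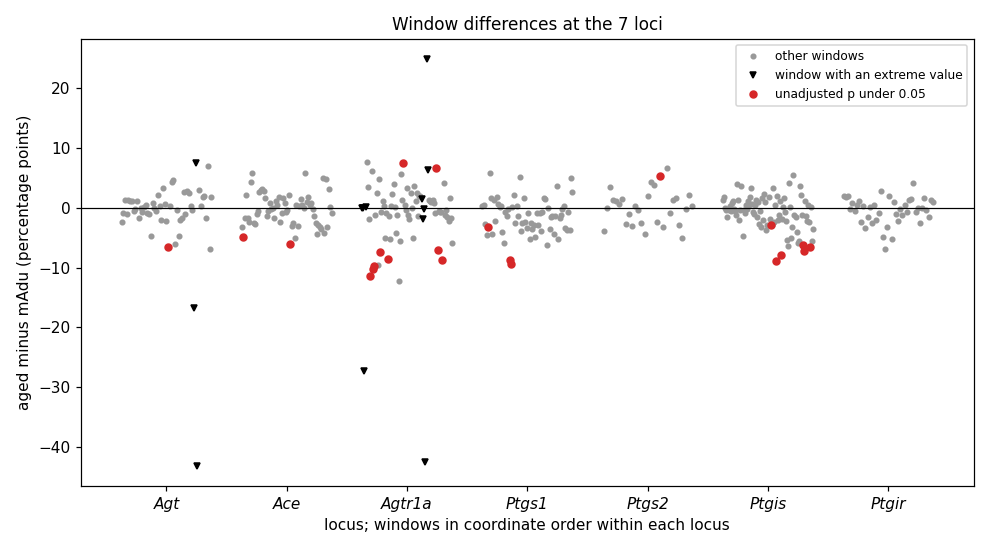
Difference of aged minus mAdu means (y axis, percentage points) for each of the 413 windows, in coordinate order within each locus (x axis), in red where limma's unadjusted p is under 0.05 and as black triangles where a window has an extreme value. The 22 red points include 19 below 0, and the largest differences, to -43.1 points, are windows with extreme values.

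Other genes of the pathways, taken from lists made for this description, gave no passing region either. Of 19 renin-angiotensin genes 16 lie on autosomes, and 0 of their 30 ends and 0 of their 16 bodies passed limma's adjusted threshold, with 21 ends and 7 bodies lower in aged samples. Over all genes, 50.5% of ends and 52.6% of bodies were lower. Limma's unadjusted p was under 0.05 for 2 of these ends and 0 bodies, against 4.95% of all ends and 5.08% of all bodies, the shares to set beside the next lists as well. The smallest p at ends belonged to Enpep, which cleaves angiotensin II (lower-coordinate end 88.4% ± 1.01 in mAdu and 91.7% ± 1.38 in aged samples), and to Agtrap, a binding partner of the type 1 receptor (82.4% ± 0.752 and 79.1% ± 1.49; SD, n = 3 each). In bodies it belonged to the peptidases Lnpep (81.7% ± 0.78 and 78.2% ± 3.89) and Anpep (77.9% ± 1.07 and 77.2% ± 0.668). Of 15 genes of prostanoid synthesis, 0 of 28 ends and 0 of 15 bodies passed, with 12 ends and 8 bodies lower, and 1 end and 0 bodies had limma's unadjusted p under 0.05. Ptges3, a prostaglandin E synthase and cochaperone, had a lower-coordinate end at 25.4% ± 0.606 and 23.3% ± 0.436, and Alox5ap, which serves leukotriene synthesis, one at 55.5% ± 1.23 and 60% ± 2.8. The bodies with the smallest p there were Ptges2 (72.5% ± 0.146 and 71.7% ± 0.909) and Alox15 (73% ± 0.564 and 73.7% ± 0.371).

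Of 14 prostanoid receptors and targets, 0 of 27 ends and 0 of 14 bodies passed, with 14 ends and 3 bodies lower in aged samples, and again 1 end and 0 bodies had limma's unadjusted p under 0.05. The prostaglandin E receptor Ptger3 had the smallest p of these lists, at its lower-coordinate end (15.4% ± 1.56 in mAdu and 11.8% ± 0.774 in aged samples; SD, n = 3 each; limma unadjusted p = 0.00688, adjusted p = 0.975). Next came the higher-coordinate end of the thromboxane receptor Tbxa2r (78.2% ± 0.846 and 80.7% ± 2.46). In bodies they were the phosphodiesterase Pde3a (69.8% ± 1.17 and 67.5% ± 1.72) and Tbxa2r (52% ± 0.388 and 54% ± 1.48). The median differences of the 3 lists at ends were -0.703, 0.283 and -0.325 points, against -0.023 over all ends.

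As a check of the cell label, the less methylated end of 12 endothelial marker genes had a median of 17.6%, with 6 of 12 under 20%, against 64.8% and 0 of 12 for haematopoietic, 47.2% and 2 of 12 for epithelial, and 26.4% and 3 of 12 for mesenchymal markers. No end or body of these 4 lists passed limma's adjusted threshold. Limma's unadjusted p was under 0.05 for 0 to 2 of the 23 or 24 ends of a list, against 4.95% of all ends. It was under 0.05 for 0 to 2 of the 10 to 12 bodies of a list, against 5.08% of all bodies. The mean of these ends per sample ranged from 16.8% to 17.9% in mAdu and from 17.1% to 18% in aged samples for endothelial markers, and from 58.6% to 62.5% and 59.7% to 61.1% for haematopoietic ones. For mesenchymal markers it ranged from 29.5% to 30.52% and from 30.56% to 31.4%, so the groups were apart by a very narrow gap. For epithelial ones it ranged from 42% to 42.4% and from 41.1% to 41.7%, also without overlap. Of single ends over all genes, 10.1% had no overlap. The part of these cell types in the differences above was not tested.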

How the data were processed

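Tagmentation-based whole-genome bisulfite sequencing gave DNA methylation for 6 samples, 3 per group. BWA 0.7.8 and build mm10 were used, per the submitters' processing notes; for the caller, coverage filters and smoothing, nothing is given in the sources used here. The authors deposited the mean methylation of each of 1684140 autosomal windows of 1000 bp as a fraction, without coverage, so no counting error or depth could be given; fractions were multiplied by 100. Windows lacking a value in any sample were dropped. Gene spans and starts came from RefSeq (GRCm38.p6), without exons. Ends ran from 1000 bp outside to 500 bp inside an edge, bodies from 500 bp inside (at least 3 windows), flanks to 20000 bp (at least 10 windows). A region's value is the unweighted mean of its windows.

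Groups were compared with limma 3.58.1 in R 4.3.3 (group as the only term, variance trend), tested on simulated data first. Member levels were compared by exact sign-flip tests, and means over members by exact permutation tests. The alternatives were a logit scale, no trend, samples shifted to a common mean, a replicate block, other region bounds, each sample left out and windows with extreme values left out. The windows named are each locus's least methylated and smallest-p window, with neighbours and low runs added after their values were seen. List genes named are the 2 with the smallest p at ends and in bodies. Members, lists and tests were chosen with earlier results of these data known.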

Additional observations from a re-analysis of the deposited data

How the results depend on the processing

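No region or window of the 7 genes passed limma's adjusted threshold of 0.05 under any alternative run. Of 246 recomputed values of 21 named differences, 241 kept their direction, and their smallest adjusted p was 0.868. The 21 are every body, each other region whose groups did not overlap, and the smallest-p window of each locus. Where groups do not overlap, leaving out 1 sample cannot turn the direction. The replicate block and the fit without trend leave each difference unchanged. Many of the 241 were thus fixed in advance, and their count is no support for the differences. Leaving out each sample in turn turned the direction of 3 body differences near 0: Agt ranged from -1.68 to 0.411 points, Agtr1a from -2.03 to 1.52 and Ptgs2 from -0.681 to 0.526. With bodies counted from 2000 bp inside the edges, Ptgs2 differed by 1.45 points (0.188 with samples shifted to a common mean), and Ptgir had too few windows and gave no value. Other moves past 1.5 times were in the Ace body, from -1.48 to -0.19 with each sample left out, in the Agtr1a body, -0.284 without windows with extreme values, and in those given beside the results for Ptgs1, Ptgis and Ptgir. With windows with extreme values left out, 4 rather than 0 neighbouring body levels differed. Agtr1a then had a higher level and a narrower spread, so that Agt and Agtr1a also reached the smallest possible exact p, and the adjusted p of the other 3 such pairs moved from 0.0625 to 0.0469. That comparison was not rerun with samples left out. Replicate numbers are shared between the groups, and what they stand for is not stated. The deviations of same-numbered samples correlated at -0.0116, -0.0167 and -0.0006 across windows. With 3 samples per group this cannot tell whether same-numbered samples were prepared together. With the replicate number as a block, 0 regions and 0 windows passed, and the counts at limma's unadjusted p under 0.05 were 13 windows rather than 22, 1 body rather than 2 and 0 starts rather than 2. Leaving out each sample in turn moved these counts as far, to between 11 windows (without aged 1) and 19, between 0 and 2 bodies (0 without mAdu 1, mAdu 2 or aged 2) and between 0 and 2 starts (0 without mAdu 1, mAdu 2, aged 1 or aged 2). The 1-window starts and ends, and a depth that is unknown, limit the precision of each value.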

Other observations

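Some low stretches in the loci lie at neighbouring genes. In the Ptgir locus, the window chr7:16923001-16924000 at Calm3, a calmodulin gene, averaged 0.452% over the 6 samples, with a range from 0.111% to 1.07%. The pair of runs at Gng8, a G protein gamma subunit gene on the other side of Ptgir, averaged 8.84% and 14.3%. In the Ace locus, the start of the potassium channel gene Kcnh6 was at 13.9%.

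The 6 windows with extreme values inside Agtr1a did not order the samples by group. At chr13:30372001-30373000, mAdu 3 and aged 1 were at 99.8% and 100%, while the other 4 samples were under 6%. At chr13:30374001-30375000, mAdu 1, mAdu 2 and aged 3 were above 99% and aged 2 was near 0%. What sets these values was not tested.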
